A study of Mus musculus with 9 samples.

Results

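RIPiT-seq is RNA sequencing after 2 immunopurifications in tandem, and the comparison here is of everything that came through both purifications with the RNA that went in. All 9 libraries of the series were used, 6 immunoprecipitate (IP) libraries and 3 input libraries, chosen by their deposited labels and not by any measured value. Of the 24132 gene symbols in the deposited table, 20431 were above 0 in at least 1 library and the 9787 that reached an RPKM of 1 in 2 or more of the libraries were tested. RPKM is the number of reads on a gene relative to the length of its transcript in kilobases and to the mapped reads of the library.

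The libraries came from 3 mouse embryonic stem cell (ESC) lines of the 129/B6 F1 hybrid background, grown without feeder cells and with LIF. Each had been infected with a lentivirus. One virus carried no cDNA (empty vector), another carried human WDR5 wild type (WT) with FLAG and HA epitope tags at its N-terminus, and the last carried tagged WDR5 F266A, with alanine in place of a phenylalanine, whose construct is shorter at the N-terminus. WDR5 is a WD40-repeat protein of the MLL and SET1 histone methyltransferase complexes. The tagged lines were grown from isolated clones picked for an expression level close to that of endogenous WDR5. Cells were fixed with formaldehyde, and complexes were drawn from the lysate first by the FLAG epitope and afterwards by the HA epitope. The empty vector line has no tagged protein, so its IPs hold what the beads and washes retain without a tag. Each line had 2 IPs, numbered as replicates in the labels, and 1 input, which both IPs of that line share. The input of a line is therefore not replicated, and the p-values below measure the spread between these libraries.

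A nucleus holds RNAs with very different lives. Box C/D small nucleolar RNAs (snoRNAs) guide the methylation of ribose and box H/ACA snoRNAs guide the change of uridine to pseudouridine, mostly in ribosomal RNA, while their relatives in Cajal bodies (scaRNAs) do the same for small nuclear RNAs. Most are cut out of the introns of host genes and are bound by a fixed set of proteins. RNase P and RNase MRP are enzymes with an RNA core, which trim transfer RNA and ribosomal RNA precursors. Some long noncoding RNAs (lncRNAs) such as Malat1 and Xist stay in the nucleus, and most mRNAs are exported to ribosomes in the cytoplasm.

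The RNAs with the largest rise in the IPs included several of these guide RNAs, and their sequences are given here because the results return to them. Sequences were read from the mm9 genome at the GENCODE M1 positions and are written 5′ to 3′ on the strand of the gene. For the H/ACA RNAs the capitals mark ACA within the last 12 bases, which 85.4% of the 41 H/ACA and scaRNA genes with a position hold. For the C/D snoRNAs they mark the first TGATGA (C box), held by 63.6% of 55 such genes, and the last CTGA (D box), held by all 55. Only the strand of the gene was searched. A match of such short words is a description of the letters. Snora23 lies at chr7:117189878-117190061 on the plus strand inside an intron of Ipo7, Scarna13 at chr12:106269285-106269559 on the minus strand, Snord83b at chr15:79908928-79909021 on the minus strand inside an intron of Rpl3, and Snord49b at chr11:62416581-62416652 on the plus strand. Snora47, at chr13:96100555-96100692 on the plus strand within Zbed3, is shown as the member of these families that was called lower in the IPs in both fits.
Snora23: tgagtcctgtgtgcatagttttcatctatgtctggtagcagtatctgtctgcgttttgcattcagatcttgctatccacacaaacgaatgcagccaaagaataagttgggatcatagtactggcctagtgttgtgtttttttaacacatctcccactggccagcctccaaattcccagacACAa
Scarna13: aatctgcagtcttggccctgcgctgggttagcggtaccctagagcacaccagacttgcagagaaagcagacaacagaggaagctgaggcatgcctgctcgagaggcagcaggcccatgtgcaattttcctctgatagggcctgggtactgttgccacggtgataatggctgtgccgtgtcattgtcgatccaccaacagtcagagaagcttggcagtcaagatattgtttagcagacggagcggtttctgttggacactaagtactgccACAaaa
Snord83b: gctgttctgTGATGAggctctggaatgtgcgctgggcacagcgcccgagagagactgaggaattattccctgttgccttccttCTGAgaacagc
Snord49b: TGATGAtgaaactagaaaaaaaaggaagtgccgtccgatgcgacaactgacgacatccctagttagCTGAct
Snora47: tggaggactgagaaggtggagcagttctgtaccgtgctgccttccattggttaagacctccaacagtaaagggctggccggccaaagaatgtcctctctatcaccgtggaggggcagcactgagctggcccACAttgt

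Most genes had more RPKM in the IPs than in the inputs. The difference, IP minus input on the log2 (RPKM + 1) scale with the line as a block, had a median of 0.30 over the 9787 genes, and the middle 90% of genes lay between -0.01 and 0.65. With limma and a Benjamini-Hochberg adjusted p under 0.05, 6247 genes (63.8% of those tested) were higher in the IPs and 50 (0.511%) were lower. All 6 IPs were above the input of their line for 66.3% of the genes. Without the empty vector line 4063 genes were called higher and 14 lower, without the WT line 17 were called lower, and without empty vector IP 1 or IP 2 the genes called lower numbered 31 and 32.

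This general rise went with the estimated share of reads on genes that have a GENCODE exon length. It was 20.1% to 22.6% in the inputs and 27.2% to 29.5% in the IPs, a log2 difference of 0.39 between the group means. The estimate multiplies RPKM by that length, which need not be the length behind the deposited RPKM. Genes without such a length are left out of it. Among them is Rn45s, the precursor of ribosomal RNA, at 7383 to 8999 RPKM in the inputs and 3692 to 6121 in the IPs. The share with Rn45s included was not computed. RPKM are shares of a library, so a higher RPKM does not say that more of that RNA was recovered in molecules, and more cells with an RNA cannot be told apart from more RNA per cell. Each library was therefore also centred on its median, which subtracted 0.31 from the difference of every gene. After centring, 457 genes (4.67%) were called higher and 423 (4.32%) lower, so that 51.9% of the calls were upward against 99.2% as deposited. All 457 genes called higher after centring were also called higher as deposited, and 49 of the 423 called lower were called lower as deposited. The centred counts rest on all 3 lines: they were 15 higher and 2 lower without the empty vector line, 89 and 38 without the WT line, and 165 and 112 without the F266A line. Without empty vector IP 1 they were 133 and 106, and without its IP 2 they were 196 and 162. In what follows "as deposited" and "after centring" name these 2 fits, and the RNAs of most interest are those that passed both.

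**Figure D1:**
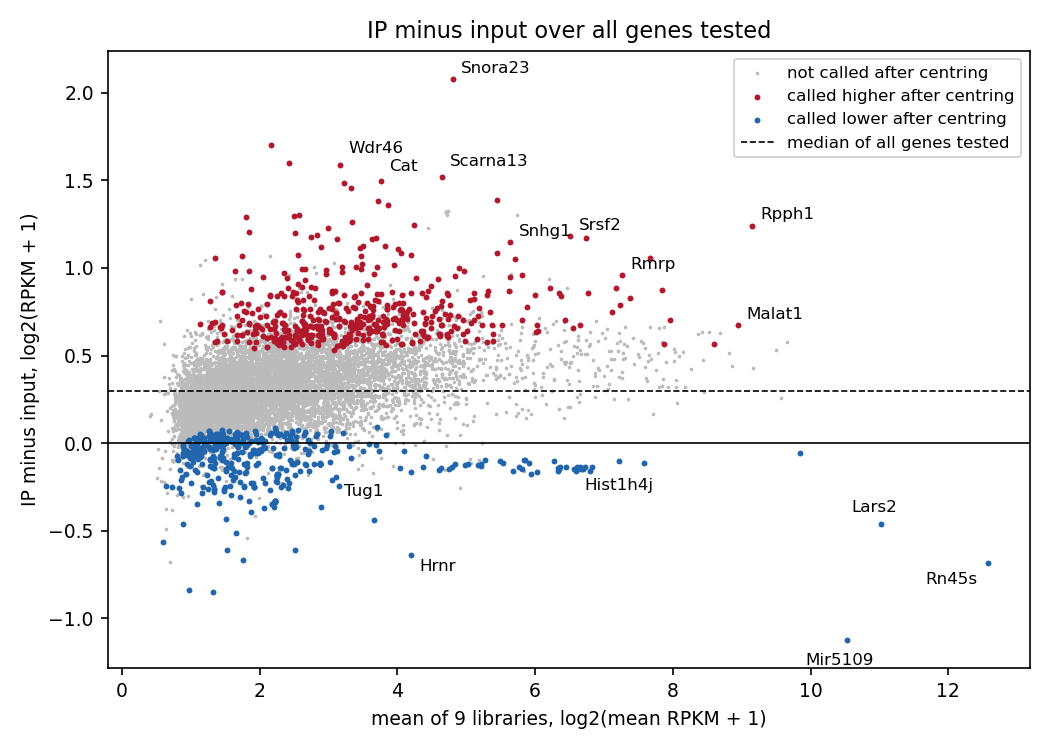
Difference between IPs and inputs on the log2 (RPKM + 1) scale (vertical axis) against the log2 of the mean RPKM plus 1 over the 9 libraries (horizontal axis) for the 9787 genes tested, 1 point each, with genes called after centring in colour. The cloud lies above 0 around its median of 0.30 (dashed), with Snora23 at 2.08 as the highest point and Mir5109 at -1.12 as the lowest of the labelled genes.

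The libraries carried the marks of ESCs. All 10 ESC markers were among the genes tested, with a summed RPKM of 543 to 611 in the inputs and 641 to 868 in the IPs. Of 10 primitive endoderm markers 5 were, with sums from 18.0 to 46.2 in the inputs and 17.9 to 57.8 in the IPs, the highest values being those of the F266A input and F266A IP 2. The sums of the fibroblast, neuroectoderm, trophectoderm, mesoderm and blood markers stayed at or below 2.69 in every library, and Col3a1, Dcn, Lum and Hbb-b1 were at 0 in all 9. The part of endoderm cells in any difference was not tested. By the estimated depth of the libraries, which was lower in every IP than in every input, an RPKM of 1 on 1 kb of exons stands for 37.5 to 50.2 reads in the inputs and 13.4 to 27.3 in the IPs. These figures cover counting error only, because amplified copies of a molecule are not independent.

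Among the H/ACA snoRNAs and scaRNAs, 37 of 46 in the table were tested. As deposited 21 of them (56.8%, against 63.8% of all genes) were higher in the IPs and 1 was lower, and after centring 6 were higher (4.67% of all genes) and 1 lower. Their median difference was 0.55, against 0.30 over all genes, and 0.24 after centring. Snora23 had the largest difference of the series among genes with a mean RPKM of at least 5. Its RPKM was 7.64, 7.72 and 7.93 in the empty vector, WT and F266A inputs, and 24.0 at the lowest, 37.7 at the median and 42.0 at the highest in the 6 IPs. The 3 inputs were nearly alike and every IP was above them, with a difference of 2.08 ± 0.15 (SE; adjusted p = 4.67e-05 from limma) as deposited and of 1.77 ± 0.15 (adjusted p = 0.000604) after centring. The lowest IP was WT IP 2.

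Scarna13 had an RPKM of 11.6 in the empty vector input, 10.5 in the WT input and 8.33 in the F266A input, and the IPs ran from 25.1 over a median of 31.5 to 33.7. Inputs and IPs did not overlap, and the difference was 1.52 ± 0.08 (SE; limma adjusted p = 1.42e-05). Scarna9, with more RPKM than either, was at 28.3, 31.0 and 29.5 in the same inputs and at 63.4 and 63.2 in the empty vector IPs, 71.5 and 62.6 in the WT IPs and 61.9 and 52.3 in the F266A IPs. Snora81, Snora52 and Snora43 were the other H/ACA RNAs called higher after centring, with differences of 1.11, 0.98 and 0.86 as deposited. All 3 lie wholly within annotated exon bases of Eif4a2, Rplp2 and Snhg7, so their reads cannot be separated from those hosts. Snora47 went the other way, from 2.42, 3.77 and 1.52 RPKM in the inputs to between 0.249 and 1.63 in the IPs. Its groups overlapped, and F266A IP 1 was above the F266A input. With a length of 138 bases it rests on few reads in the IPs. Its difference was -0.85 ± 0.22 (SE; limma adjusted p = 0.00755), and without the WT line -0.67 (adjusted p = 0.0701).

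The C/D box snoRNAs were fewer in reads. The table lists 97, of which 46 were tested, with 15 higher (32.6%, against 63.8% of all genes) and 1 lower as deposited, 7 higher (4.67% of all genes) and 0 lower after centring, and a median difference of 0.42. The 1 that was lower as deposited was Snord38a, at 0 to 1.75 RPKM in every library. Snord83b was at 6.05, 4.09 and 5.86 RPKM in the empty vector, WT and F266A inputs and between 11.5 and 22.7 in the IPs, with a median of 14.5. Snord43 was at 5.40, 7.01 and 5.97 in the inputs and between 13.9 and 21.6 in the IPs. For both RNAs every IP was above every input, and the differences were 1.38 ± 0.19 and 1.36 ± 0.13 (SE; limma adjusted p = 0.000576 and 0.000139). Snord22 had 2.83, 2.41 and 0.627 RPKM in the inputs and 3.90 to 7.19 in the IPs, a difference of 1.30, but it lies in exon bases of Snhg1 and its reads cannot be separated from that host. Snord93, Snord49b, Snord104 and Snord92 completed the 7, with differences of 1.29, 1.02, 0.78 and 0.68.

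A snoRNA is made from the intron of a host, so the difference of each was set beside that of its host where the GENCODE models place both on the same strand. For 34 snoRNAs that share no exon bases with their host, the median difference was 0.47 for the snoRNA and 0.43 for the host, and 17 of the 34 lay above their host. Some pairs lay far apart. Snora23 lay 1.80 above Ipo7, an importin mRNA with a difference of 0.28, and Snord83b lay 1.12 above Rpl3, a ribosomal protein mRNA at 0.26. Scarna9 lay 0.97 above its host 5830418K08Rik. In the other direction Snora47 lay 1.37 below Zbed3, and Snord45b lay 1.05 below Rabggtb. In a further 29 pairs the snoRNA shares some or all of its bases with annotated exons of the host, where reads of the pair cannot be separated, and 11 of those 29 lay above the host.

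The RNA cores of RNase P and RNase MRP were higher in the IPs in every case measured. Rpph1, the RNA of RNase P, had an RPKM of 281, 313 and 295 in the empty vector, WT and F266A inputs, and 586 at the lowest, 695 at the median and 856 at the highest in the IPs. This was a rise of 1.24 ± 0.09 (SE; limma adjusted p = 4.67e-05), and 0.93 ± 0.08 after centring (adjusted p = 0.000717). Rmrp, the RNA of RNase MRP, was at 103, 88.1 and 88.6 in the inputs and from 157 to 201 in the IPs, a difference of 0.96 ± 0.08 (limma adjusted p = 0.00012). Neither RNA had an IP within the range of the inputs.

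Rprl3 and Rprl2, which the reference also classes as RNase P RNAs, rose by 1.39 and 1.17, but as relatives of Rpph1 they may share its reads and are not separate evidence. Terc, the telomerase RNA, was at 18.0, 15.5 and 16.1 in the inputs and from 16.6 to 29.5 in the IPs, so the groups overlapped. Its difference was 0.48 as deposited (limma adjusted p = 0.0266) and 0.17 after centring (adjusted p = 0.523). The copies of Rn4.5s, the 4.5S RNA, are listed with identical or nearly identical values, the row Rn4.5s at 7.65, 10.3 and 13.96 in the empty vector, WT and F266A inputs. In the IPs it ran from 14.2 to 59.6, with WT IP 1 and F266A IP 1 far above the other 4. Its difference of 1.32 passed as deposited (limma adjusted p = 0.00859) and not after centring (adjusted p = 0.103). Of the 11 distinct rows of catalytic and structural RNAs tested, 7 were higher and 1 was lower as deposited (63.8% and 0.511% of all genes). After centring 2 were higher and 1 lower (4.67% and 4.32% of all genes). Near-copies of Rn4.5s, such as Rn4.5s.2 and Rn4.5s.4, stand among these rows, so the list counts that RNA more than once.

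**Figure D2:**
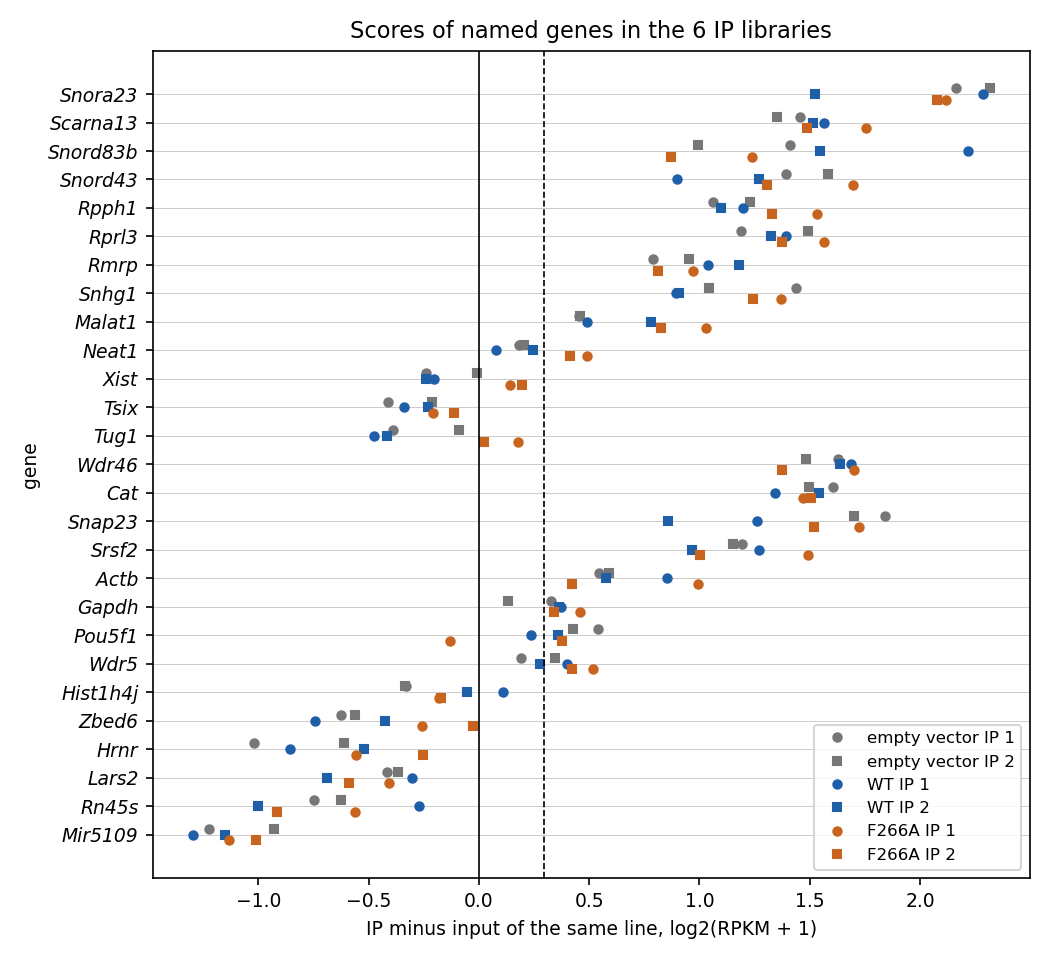
IP minus input of the same line on the log2 (RPKM + 1) scale (horizontal axis) for 27 named genes (vertical axis) in the 6 IP libraries, with colours for the lines, circles for IP 1, squares for IP 2, and a dashed line at the median of all genes, 0.30. The points of Snora23, Scarna13, Rpph1, Wdr46 and Cat all lie to the right of that line, and those of Rn45s, Mir5109 and Lars2 all lie to the left of 0.

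The lower RNA in that list was Rn45s, the precursor of ribosomal RNA. Its RPKM was 7941, 7383 and 8999 in the empty vector, WT and F266A inputs and lay between 3692 and 6121 in the IPs, with a median of 4962. Every IP was below every input, and Rn45s fell by 0.69 ± 0.14 (SE; limma adjusted p = 0.00275) as deposited and by 0.996 ± 0.15 after centring (adjusted p = 0.00847). With no filter on low values its adjusted p was 0.409. Mir5109, a row named for a microRNA hairpin, was at 2209, 2242 and 2483 in the inputs and between 912 and 1233 in the IPs. It fell by 1.12 ± 0.08 (limma adjusted p = 4.9e-05), the largest fall of any gene with a mean RPKM of at least 5. Lars2, the mitochondrial leucyl-tRNA synthetase gene, was at 2409, 2338 and 2836 in the inputs and between 1450 and 2140 in the IPs, a difference of -0.46 ± 0.09 (limma adjusted p = 0.00219), with an adjusted p of 0.259 without the filter. Quantile normalization ends all 3 calls: it gives genes of equal rank the same value, so that Rn45s and Lars2 differ by 0, and Mir5109 differs by -0.43 (adjusted p = 0.194). The Lars2 row lay far above Actb, at 158 to 173 RPKM in the inputs. IP minus input was lowest in WT IP 2 and highest in WT IP 1 for both Lars2 (-0.30 there) and Rn45s (-0.27). For Mir5109 it was lowest in WT IP 1 (-1.30). Whether these 3 rows share reads of ribosomal RNA was not tested, so they may not be separate falls.

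MicroRNA genes as a group did not follow Mir5109. The 219 rows tested hold 122 distinct ones, since clustered copies repeat the same values. Of these, 35 were higher (28.7%, against 63.8% of all genes) and 4 lower (0.511% of all genes) as deposited, with a median difference of 0.17. After centring 3 were higher and 4 lower (4.67% and 4.32% of all genes). The list median differed between lines, from 0.05 and 0.06 in the empty vector IPs over 0.32 and 0.11 in the WT IPs to 0.59 in both F266A IPs. Mir103-2 was at 6.60, 7.73 and 4.76 RPKM in the inputs and 1.55 to 5.05 in the IPs, a difference of -0.61 (limma adjusted p = 0.0409), and its groups overlapped. Mir1940, at 1.91, 2.15 and 1.06 in the inputs, was at 0 in 2 of the IPs and above its input in F266A IP 1.

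Long noncoding RNAs did not move together. All 12 noncoding snoRNA host genes tested were higher in the IPs as deposited (63.8% of all genes), with a median difference of 0.74. After centring 7 of them were higher (4.67% of all genes). Snhg1 rose from 28.7, 30.4 and 20.5 RPKM in the inputs to between 49.9 and 79.5 in the IPs, with no overlap, a difference of 1.15 ± 0.11 (SE; limma adjusted p = 0.000145). Snhg3 was at 5.12, 6.16 and 5.46 in the inputs and between 8.80 and 15.5 in the IPs, a difference of 1.02. The annotated exons of Snhg1 hold bases of Snord22 and other C/D snoRNAs. Those of Snhg3 share bases with Snora73a, Rcc1 and, on the other strand, Gm17300. Reads on shared bases cannot be assigned to the host, so these rises may include reads of the other genes. Snhg5 varied widely, since its IPs reached 88.8 in F266A IP 1 but WT IP 2, at 23.2, was below the WT input at 35.1. After centring its difference was 0.99 with an adjusted p of 0.156 from limma.

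Of the 13 nuclear lncRNAs tested, 8 were higher as deposited (61.5%, against 63.8% of all genes) and 1 was lower. After centring 1 was higher and 4 were lower (4.67% and 4.32% of all genes), with a list median of 0.27 as deposited and -0.04 after centring. Malat1, a nuclear speckle RNA, was at 358, 370 and 320 RPKM in the empty vector, WT and F266A inputs and between 492 and 654 in the IPs, with no overlap. Its difference was 0.67 ± 0.10 (SE; limma adjusted p = 0.000834) as deposited and 0.36 ± 0.10 (adjusted p = 0.0488) after centring. Its call is lost under the other scalings, with 0.28 (adjusted p = 0.114) at an equal share of reads on genes and 0.0023 (adjusted p = 0.993) after quantile normalization. The 4 RNAs lower after centring were Tsix, Tug1, Kcnq1ot1 and Xist.

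Tsix, the antisense partner of Xist, was at 4.18, 4.06 and 5.37 in the inputs and below its own input in all 6 IPs, with a difference of -0.25 ± 0.07 (limma adjusted p = 0.0149). The counting is not stated to use strand, so reads of Tsix and Xist cannot be told apart where they overlap. Xist had 2.59, 2.63 and 2.93 in the inputs and 2.04 to 3.502 in the IPs, with a difference of -0.06 as deposited (adjusted p = 0.548) and -0.37 after centring (adjusted p = 0.0246). Tug1 was at 8.51, 9.95 and 6.91 in the inputs and 6.26 to 7.95 in the IPs. For both Xist and Tug1 the empty vector and WT IPs lay below their inputs and the F266A IPs above theirs. Neat1, the scaffold RNA of paraspeckles, was at 11.4, 6.31 and 3.92 in the inputs and from 5.54 to 13.3 in the IPs, above its input in all 6. Its difference of 0.27 (adjusted p = 0.015) was -0.04 after centring and lost its sign there.

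Among protein-coding genes, 296 met every condition for a rise: past the threshold in both fits, all 6 IPs above their inputs, and a mean RPKM of at least 5. The 10 with the largest difference were Wdr46, Cat, Snap23, Ccdc115, Cdc40, Gm10664, Heatr2, Pim2, Srsf2 and Pex10, with differences from 1.59 to 1.17. Wdr46, a nucleolar WD40-repeat protein, had 3.25, 2.54 and 2.76 RPKM in the empty vector, WT and F266A inputs and 8.76 to 12.1 in the IPs, with a median of 10.7. Inputs and IPs were far apart in each line, and the mean RPKM of the IPs was 3.71 times that of the inputs (difference 1.59 ± 0.09, limma adjusted p = 1.42e-05).

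Cat, which encodes catalase, was at 4.72, 4.94 and 5.71 in the inputs and between 14.1 and 18.1 in the IPs, a difference of 1.49 ± 0.07 (limma adjusted p = 9.46e-06). Snap23, a membrane fusion protein, was at 2.71, 3.57 and 3.42 in the inputs and between 7.29 and 13.6 in the IPs, and Ccdc115 was at 4.28, 3.63 and 2.97 and between 8.71 and 13.5. The groups did not overlap for any of these 3 mRNAs. Cdc40, a splicing factor, rose by 1.26 ± 0.08, Heatr2 by 1.23 ± 0.08 and Pex10, a peroxisome biogenesis protein, by 1.17 ± 0.09. Pim2, a protein kinase, had wide inputs, at 4.13, 2.47 and 1.43, and its IPs from 2.53 to 12.4 overlapped them. Gm10664 was at 6.56, 6.39 and 14.4 in the inputs and between 16.9 and 33.5 in the IPs.

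Srsf2, a splicing factor of the SR family, was the highest of the 10 by RPKM, at 52.4, 47.9 and 44.7 in the inputs and from 90.6 to 128 in the IPs. It shares exon bases with Mfsd11 on the other strand, as Heatr2 does with Gm15672, and without strand their reads cannot be told apart. The difference of Srsf2 was 1.18 ± 0.11 (SE; limma adjusted p = 0.000166) as deposited and 0.87 ± 0.11 (adjusted p = 0.00426) after centring. Of 23 splicing regulators tested, 22 were higher as deposited (95.7%, against 63.8% of all genes). After centring 6 were higher and 1 was lower (4.67% and 4.32% of all genes). The 6 were Srsf2, Srsf3, Srsf7, Srsf4 and the kinases Clk4 and Clk1, with differences of 1.18, 0.69, 0.64, 0.56, 0.62 and 0.55. The 1 that was lower was Srrm2, at 73.0, 82.7 and 83.9 in the inputs and 62.5 to 89.0 in the IPs, with a difference of -0.41 after centring (adjusted p = 0.0331) and -0.10 as deposited (adjusted p = 0.366).

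The large families of housekeeping mRNAs had medians above that of all genes as deposited. Protein-coding genes in the 2 highest of 5 groups by mean RPKM had medians of 0.36 and 0.44. The part of RPKM level in the family medians was not tested. After quantile normalization the medians of the respiratory chain (-0.014) and endoplasmic reticulum (-0.072) genes lay below that of all genes (-0.004). Of 78 cytosolic ribosomal protein mRNAs 73 were higher as deposited (percent called over all genes 63.8), but 2 after centring, with a median difference of 0.47 as deposited and 0.16 after centring. Mitochondrial ribosomal proteins had a median of 0.40 with 7 of 76 higher and 1 lower after centring (4.67% and 4.32% of all genes). The 75 respiratory chain genes, 36 proteasome subunits and 25 genes of folding and translocation in the endoplasmic reticulum had 0 calls in either direction after centring, with medians of 0.38, 0.38 and 0.32 as deposited, where 63, 33 and 21 of them were higher. Of 53 translation factors 2 were higher after centring (4.67% of all genes), among them Eif4a1 at 0.86, whose exons share bases with snoRNAs. Of 18 heat shock proteins and chaperonins 3 were, with Cct6a at 0.86.

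**Figure D3:**
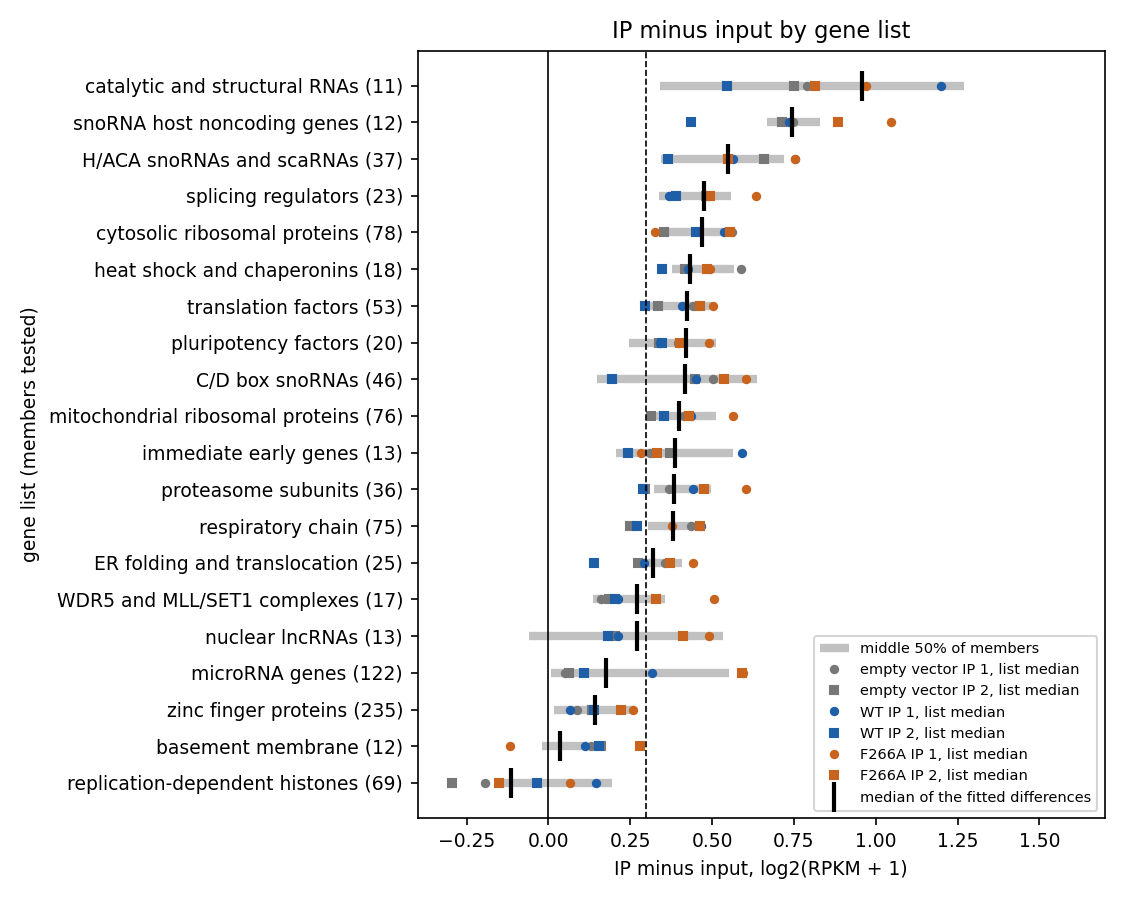
IP minus input on the log2 (RPKM + 1) scale (horizontal axis) for 20 gene lists (vertical axis, with the number of distinct members tested), where the black tick is the median of the fitted differences, the grey bar spans the middle 50% of members and the points are the list's median score in each IP. Noncoding snoRNA host genes, with a median of 0.74, and catalytic and structural RNAs, with 0.96, lie farthest right of the dashed line at 0.30. The list of catalytic and structural RNAs counts near-copies of Rn4.5s as separate members. Replication-dependent histones, with -0.12, lie farthest to the left.

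Replication-dependent histone mRNAs, which end in a stem-loop in place of a poly(A) tail, lay lowest of the 20 lists. Of 69 distinct rows tested, 15 were higher (21.7%, against 63.8% of all genes) and 0 lower (0.511% of all genes) as deposited. After centring 0 were higher and 39 lower (4.67% and 4.32% of all genes). The median difference was -0.12 as deposited and -0.43 after centring. Hist1h2ak, at 70.2, 59.4 and 66.7 RPKM in the inputs and 53.9 to 64.7 in the IPs, was below its input in all 6 IPs, with a difference of -0.17 ± 0.09 as deposited (limma adjusted p = 0.0968) and -0.48 ± 0.08 after centring (adjusted p = 0.0133). Hist1h4j was at 118, 91.7 and 101 in the inputs and 88.2 to 99.0 in the IPs, of which WT IP 1 was above its input. Histone genes are near-copies of each other, so their reads may be shared between rows and the 39 are not 39 separate measurements.

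Zinc finger protein mRNAs were also low. Of 235 tested, 84 were higher (35.7%, against 63.8% of all genes) and 8 lower (0.511% of all genes) as deposited. After centring 7 were higher and 56 lower (4.67% and 4.32% of all genes). The median was 0.14 as deposited and -0.17 after centring. Zfp931 fell from 2.90, 2.92 and 1.61 RPKM in the inputs to between 1.08 and 2.13 in the IPs, with every IP below its own input, a difference of -0.43 ± 0.09 (SE; limma adjusted p = 0.00333). Zfp935 fell by 0.34 ± 0.12. The list also held Zfp691, which rose from 1.09, 0.909 and 1.52 in the inputs to between 2.85 and 3.99 in the IPs, a difference of 0.98 ± 0.10 (limma adjusted p = 0.000189).

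Only 3 protein-coding genes met every condition for a fall: Hrnr, Lars2 and Zbed6. Whether the Lars2 row measures its mRNA alone was not tested. Centring lowered every difference, so the condition to pass both fits is stricter for a fall than for a rise. After centring alone, 410 mRNAs were called higher and 362 lower. Hrnr, which encodes the repeat protein hornerin of skin, was at 16.7, 13.4 and 36.9 RPKM in the empty vector, WT and F266A inputs, and in the IPs at 7.71 and 10.6, 6.94 and 9.003, and 24.7 and 30.8 in the same order of lines. The lines differed more than the fractions did, but each IP was below its own input, and the difference was -0.64 ± 0.13 (limma adjusted p = 0.00245). Zbed6, at 12.8, 15.8 and 13.9 in the inputs and 7.95 to 13.6 in the IPs, fell by 0.44 ± 0.11. The noncoding genes that met the same conditions were Mir5109, Rn45s and Gm2381, a pseudogene that fell by 0.37 ± 0.11.

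Genes of the pluripotent state and of the WDR5 complexes were also examined. Of 20 pluripotency factors 15 were higher as deposited (75%, against 63.8% of all genes), with a median of 0.42. After centring 1 was higher and 1 lower (4.67% and 4.32% of all genes). Pou5f1, which encodes OCT4, was at 55.5, 50.2 and 39.8 in the inputs and between 36.3 and 81.1 in the IPs, and its difference of 0.30 (limma adjusted p = 0.0425) was -0.01 after centring. Nanog was higher by 0.45 ± 0.09 and Sox2 by 0.25 ± 0.14 (adjusted p = 0.125). Dppa4 was the gene called higher after centring, from 8.73, 9.41 and 7.28 in the inputs to 12.7 to 14.96 in the IPs, and Klf4 the one called lower, with a difference of 0.05 as deposited and -0.26 after centring.

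The 17 subunits of the MLL and SET1 complexes had a median of 0.27, with 10 higher as deposited (58.8%, against 63.8% of all genes) and 0 higher and 3 lower after centring (4.32% of all genes). The 3 were Mll1, Mll2 and Ncoa6, with differences of -0.04, 0.04 and 0.00 as deposited. Wdr5 itself differed by 0.36 ± 0.08 as deposited (limma adjusted p = 0.00312) and by 0.05 ± 0.07 after centring (adjusted p = 0.661). The mRNAs used as common references also carried the general rise: Gapdh differed by 0.33 ± 0.08 and Actb by 0.66 ± 0.12 as deposited, and after centring by 0.02 and 0.35 (adjusted p = 0.866 and 0.097). Of 12 basement membrane genes 2 were higher as deposited and 2 lower after centring, with a median of 0.04. Of 13 immediate early genes 8 were higher as deposited and 1 was lower after centring. Over all genes 63.8% were higher as deposited and 4.32% lower after centring.

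The difference also varied with the length of the RNA. Protein-coding genes were put into 5 groups of equal size by the length of their GENCODE exons. In the shortest group, 291 to 2043 bases, the median difference was 0.38. After centring 122 of its 1704 genes were called higher and 63 lower (7.16% and 3.70%, against 4.67% and 4.32% of all genes). In the longest, 6203 to 29858 bases, the median was 0.21, with 27 higher and 117 lower after centring (1.58% and 6.87%). The groups between had medians of 0.35, 0.31 and 0.27. The order was the same among genes with a mean RPKM of at least 5 when the ratio of mean RPKM was taken with no pseudocount, at 0.51, 0.51, 0.47, 0.42 and 0.34 on the log2 scale.

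Over 2829 such genes Spearman's rho between exon length and that ratio was -0.28, a value across genes, which are not independent replicates and share the same 9 libraries. It was not equal between IPs: the score fell with length most in WT IP 1 (rho -0.39) and empty vector IP 1 (-0.35), and least in F266A IP 1 (-0.05). GC content of the exons had a rho of 0.02 with the pooled ratio, but the sign was not the same in every line. For single IPs rho was positive with WT (0.20 and 0.22) and negative with the empty vector (-0.04 and -0.07) and with F266A (-0.07 and -0.12). Genes with a higher RPKM had a larger difference, from 0.19 in the lowest of 5 groups by mean RPKM to 0.44 in the highest, and the pseudocount of 1 draws the low genes toward 0. RNA length, fragment size and amplification were not measured separately, and their part in this order was not tested.

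**Figure D4:**
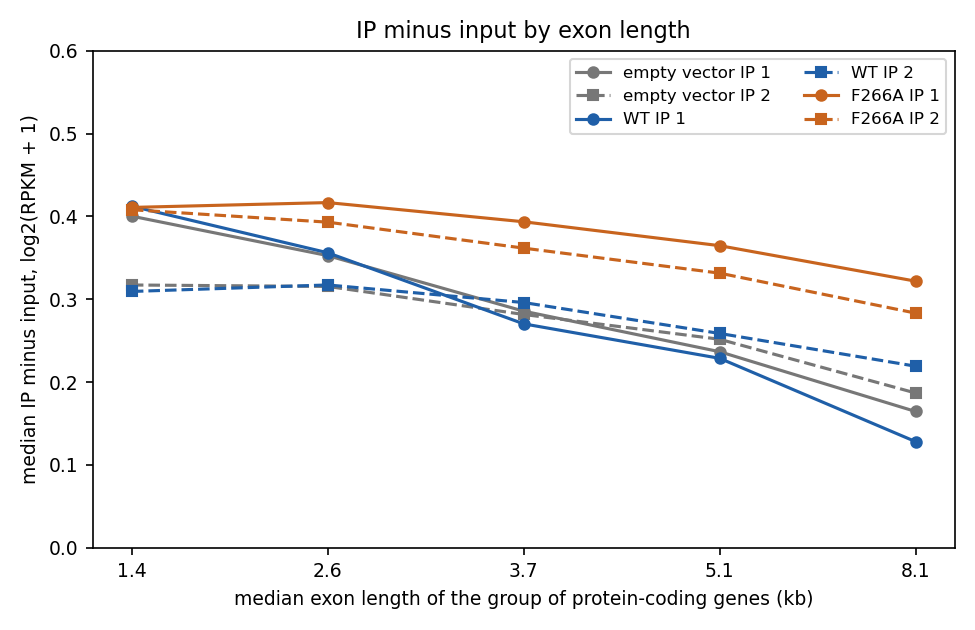
Median IP minus input on the log2 (RPKM + 1) scale (vertical axis) of protein-coding genes in 5 groups by exon length (horizontal axis, median length of each group in kb), 1 line for each IP library, with solid lines for IP 1 and dashed lines for IP 2. In all 6 IPs the group of the longest genes has the lowest median, and the F266A IPs lie above the others in every group but the shortest.

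Each line was then left out in turn, to see whether its libraries showed the differences found in the others. Genes were called or ranked in the other lines and their values were then read in the line left out. Its libraries had no part in the calls or ranks, but the filters on RPKM used all 9 libraries. Of the 4063 genes called higher as deposited in the WT and F266A lines, 96.9% were above the input in both empty vector IPs, against 83.0% of all genes. Of the 14 called lower, 12 were below it in both, against 7.27% of all genes. After centring, the 100 genes with the highest difference in the tagged lines, among distinct rows with a mean RPKM of at least 5, were all above 0 in both empty vector IPs, against 61.6% of the genes of that filter. Their median was 0.67 in the empty vector line and 0.66 in the tagged lines.

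Of the 100 lowest genes in the tagged lines, 93 were below 0 in both empty vector IPs, against 22.6% of the genes of that filter, with a median of -0.49. With another line left out, 81 of the highest 100 and 92 of the lowest 100 kept their side in both WT IPs, against 50.4% and 21.5% of the genes of that filter, and 92 and 94 did so in both F266A IPs, against 51.4% and 20.1%. Of the 74 genes called lower as deposited without the F266A line, 28 were below the input in both F266A IPs, against 1.56% of all genes.

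A difference between lines was also tested directly, with a moderated F test in limma of the line terms. It called 0 of 9787 genes, and 219 had an unadjusted p under 0.05. With a pseudocount of 0.1 in place of 1 it called 89. Each line has 1 input and 2 IPs, so the spread in this test comes from 3 pairs of IPs, and the absence of calls does not show that the lines were alike.

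**Figure D5:**
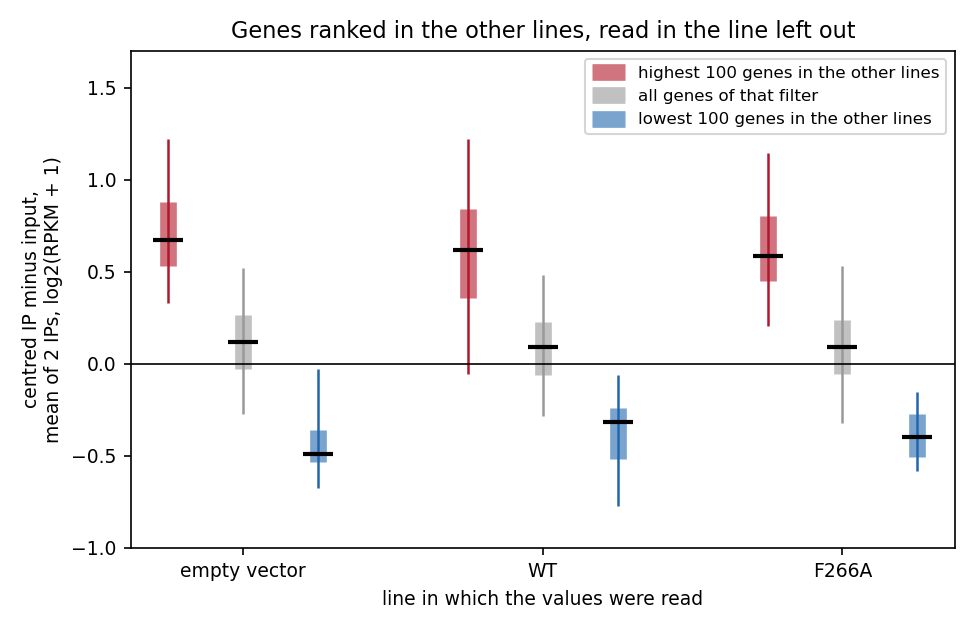
Centred IP minus input in the line named on the horizontal axis (mean of its 2 IPs, log2 (RPKM + 1) scale, vertical axis) of the 100 genes that ranked highest and the 100 that ranked lowest in the other lines, and of all genes of the same filter. Thick bars span the middle 50%, thin lines the middle 90% and black ticks the median, which for the highest 100 is 0.67 in the empty vector line, 0.62 in WT and 0.59 in F266A.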

How the data were processed

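RNA from 6 IPs and 3 inputs was sequenced, and samples were grouped by their deposited labels. Per the submitters' processing notes and the methods, TopHat 1.1.3 placed the reads on mm9. The deposited RPKM, 1 row for each RefSeq symbol, came from a script of the authors. Values are divided by mapped reads, so differences in the share of reads on genes remain. Since the values are no counts, count models were left aside. Log2 (RPKM + 1) was computed from the deposited RPKM and fitted with limma 3.58.1 in R 4.3.3 (lmFit and eBayes with trend, line as a block, Benjamini-Hochberg), and tested on simulated data. A fold on this scale understates changes of low genes. Python 3.11.15 made the descriptions. Depth was estimated per library from what 1 read adds to RPKM at low genes of known exon length.

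RNA classes came from the RefSeq table of GRCm38.p6 (names only): 22137 symbols matched, 1823 by an older name, and 172 did not. GENCODE M1 gave mm9 exons for 21058. Identical rows counted once in lists, classes and named genes (138 of the tested rows repeat another).

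The members and the 27 gene lists were chosen with earlier results of these data known. Genes named were Wdr5, 14 well-known RNAs and mRNAs where present, up to 10 protein-coding and 5 noncoding genes per direction with the largest difference (adjusted p under 0.05 in both fits, all 6 IPs on 1 side, mean RPKM of at least 5), and 3 per list farthest from the median of all genes. Others named, among them the remaining list members called after centring, Rprl2 and the snoRNA hosts, were chosen after their values were seen. Centring combined with other settings was added after seeing the data. One gene that the rule selects is not reported here.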

Additional observations from a re-analysis of the deposited data

Results flagged for a closer look

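For 13 of 113 genes and lists, 1 of the 6 IPs lay far from the other 5 on the IP minus input scale (log2 of RPKM + 1). For 6 independent values the cut flags about 1 in 20 by chance. That rate does not strictly apply here, since both IPs of a line share an input and the genes and lists overlap. WT IP 1 was the far one for Myc, at 1.32 against 0.47 to 0.72, for Mrps27 at 1.12, for Sdhd at 1.19 and for the median of the immediate early genes at 0.59. WT IP 2 was the far one for Snora23, at 1.52 against 2.08 to 2.32, and for Hspa5, an endoplasmic reticulum chaperone, at 0.076 against 0.61 to 0.91. F266A IP 1 was the far one for Pex10 at 1.48, Psmd9 at 1.06, Mir1940 at 0.43 and Btg2 at -0.85. It was also far below the others for 3 genes of endoderm and basement membrane, Col4a1 at -1.66 against 0.05 to 0.41, Col4a2 at -1.64 and Gata4 at -0.78. The summed primitive endoderm markers were at 17.9 RPKM in that library, the lowest of the IPs, and their part in these values was not tested.

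For 7 genes the IPs of a line all lay above their input and those of another line all below. These are values as deposited, and each line has 1 input. Over all genes their median was 0.27 and 0.26 in the empty vector IPs, 0.27 in both WT IPs, and 0.39 and 0.35 in the F266A IPs. A difference from F266A therefore includes this general shift. For the 7 genes the difference between the lines was -0.29 for Xist, -0.34 for Tug1, -0.28 for Mll1 and -0.15 for Ncoa6 (empty vector minus F266A), -0.35 for Rpl7a (empty vector minus WT), and -0.093 for Klf4 and -0.53 for Thy1 (WT minus empty vector). The limma F test over lines called none of them, with an adjusted p of 0.9999 for each.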

How the results depend on the processing

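The as-deposited counts of 6247 genes higher and 50 lower rest on the scaling. Higher and lower genes numbered 457 and 423 after centring, 248 and 368 after quantile normalization, and 391 and 288 at an equal share of reads on genes. They were 4836 and 28 without the line block, 5185 and 95 without the filter, and 2654 and 7 among genes with a mean RPKM of at least 5, where fewer genes are tested. Within the empty vector line alone they were 60 and 1. Within the WT line they were 17 and 0, and within the F266A line 1887 and 2. These counts compare 2 IPs with 1 input, and their spread is pooled over the pairs of IPs of all 3 lines. They are therefore not independent tests of each line. Leaving out 1 IP or 1 line gave 4063 to 6537 higher and 14 to 74 lower. The cause was not tested for the other changes.

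Same-numbered IPs did not deviate together in every pair of lines (r = 0.11, 0.01 and 0.26), so their numbers were not taken to pair them. The replicate block gave 6493 higher and 57 lower. Combinations with centring were chosen after seeing the data. Centred with the replicate block the counts were 680 and 564, with the mean of both IPs 914 and 688, with a pseudocount of 0.1 they were 311 and 341, and with a mean RPKM of at least 5 they were 194 and 236. Centred and without IP 1 or IP 2 they were 133 and 106 or 196 and 162 in the empty vector line, 350 and 306 or 659 and 480 in the WT line, and 591 and 526 or 465 and 383 in the F266A line. Without the whole line they were 15 and 2, 89 and 38, and 165 and 112 in the same order. The F test over lines called 0 genes under quantile normalization and with the replicate block, and 89 with a pseudocount of 0.1.

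Wdr5 turned to -0.057 under quantile normalization. Neat1 was at -0.041, -0.13 and -0.070, Pou5f1 at -0.0077, -0.13 and -0.080 and Klf4 at -0.26, -0.39 and -0.31 under centring, quantile normalization and the equal share. Gapdh was at -0.071 and -0.051 under the last 2 of these. With single IPs left out, Col4a1 ranged from -0.29 without F266A IP 2 to 0.25 without F266A IP 1, where it passed the test (adjusted p = 0.0309). Quantile normalization also ended the calls of Gm10664, Pim2, Dppa4 and Srsf3, leaving out the line block those of Hrnr and Tsix, and leaving out the empty vector line those of Zbed6, Gm2381, Tsix, Zfp931 and Zfp935. Mir1940 and Mir103-2 lost theirs under 9 and 7 alternatives. In simulated data for the centred fit, 47 of 50 genes raised by 1 and 32 of 50 raised by 0.5 on the log2 scale were recovered, so smaller differences can be missed.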
